A study of Bos taurus with 9 samples.

Results

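The cytosolic ribosomal proteins are the protein parts of the 80S ribosome, and their mRNAs were followed here in liver biopsies of lactating Holstein cows. The members were the genes whose symbol was RPL or RPS followed by a number, with an optional letter, together with RPLP0, RPLP1, RPLP2 and RPSA. For RPL a further number after the letter was allowed, as in RPL7L1. Of the 28786 genes in the count table, 82 met this rule. They comprised 45 genes of the large (60S) subunit, 31 genes of the small (40S) subunit and 6 paralogs whose products resemble a more widely used ribosomal protein (RPL3L, RPL7L1, RPL10L, RPL22L1, RPL26L1 and RPS27L). RPL41 and RPL39L were not analysed here.

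The design held 3 groups of 3 cows, with 1 liver RNA library from each cow. Thermoneutral cows (TN) were kept at a comfortable temperature and ate freely, heat stress cows (HS) were kept warm by day and night, and pair-fed cows (PF) were kept under the thermoneutral condition with feed limited to what the HS cows ate. The cows were lactating animals taken from a larger trial, and no genotype or age was given in the labels. HS vs. TN therefore set heat and low intake together against the control, PF vs. TN low intake alone, and HS vs. PF heat at a matched intake. The TN cows entered both HS vs. TN and PF vs. TN, so those 2 comparisons are not independent.

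The ribosome translates mRNA into protein: the small subunit reads the message and the large subunit joins the amino acids. Most ribosomal proteins are present in a single copy in each ribosome, and their mRNAs begin with a terminal oligopyrimidine (TOP) motif through which mTOR signaling controls how strongly they are translated. The liver exports plasma proteins in bulk and so carries a large pool of ribosomes. An mRNA level does not show how strongly that mRNA was translated, and in whole liver fewer cells of a type and less RNA per cell cannot be told apart.

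Libraries held 16874444 to 22557047 counts. The hepatocyte markers were abundant in every library, with ALB at 8768 CPM (counts scaled to a fixed library total) in the lowest library and 82515 CPM in the highest, after scaling by the trimmed mean of M values (TMM). TN replicate 1 stood apart from the other libraries. It had the lowest summed CPM of the 9 hepatocyte markers measured, 15937 against 49531 to 103776 in the other 8 libraries, the largest fraction of counts from the 13 mitochondrial protein-coding genes (22.2%), and the largest TMM factor (1.33, the smallest being 0.869). The part of these differences in the results was not tested. Several results are given with and without TN replicate 1, and the others only with it. Hepatocyte markers summed to 15937 to 63885 CPM in TN, 68724 to 102045 CPM in PF and 49531 to 103776 CPM in HS. Every PF cow was thus above every TN cow, and 8 of the 9 markers had a log2 fold change above 0 in PF vs. TN. The part of this difference in the results was not tested. Markers of T cells, B cells, endothelium, stellate cells and bile duct overlapped among the groups in their summed level. Neutrophil markers summed to 43.7 to 132 CPM in HS, 18.9 to 39.2 CPM in TN and 11.6 to 58.4 CPM in PF, and erythroid markers to 4.07 to 23.1 CPM in TN against at most 3.06 CPM in the other groups. Kupffer cell markers summed to 2008 to 3177 CPM in HS, 1307 to 2958 CPM in TN and 1477 to 2027 CPM in PF.

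Ribosomal protein mRNAs took up a few percent of all counts in each cow. The share was 3.42%, 3.98% and 4.02% in the TN cows, 3.76%, 5.21% and 4.61% in the PF cows, and 4.72%, 4.73% and 3.80% in the HS cows. Group means were 3.80% ± 0.335 in TN, 4.53% ± 0.728 in PF and 4.42% ± 0.537 in HS (SD, n = 3), and the groups overlapped. At this depth the counting error was small: the widest 95% Wilson interval, that of PF replicate 2, ran from 5.20% to 5.22%, covering counting error only.

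**Figure D1:**
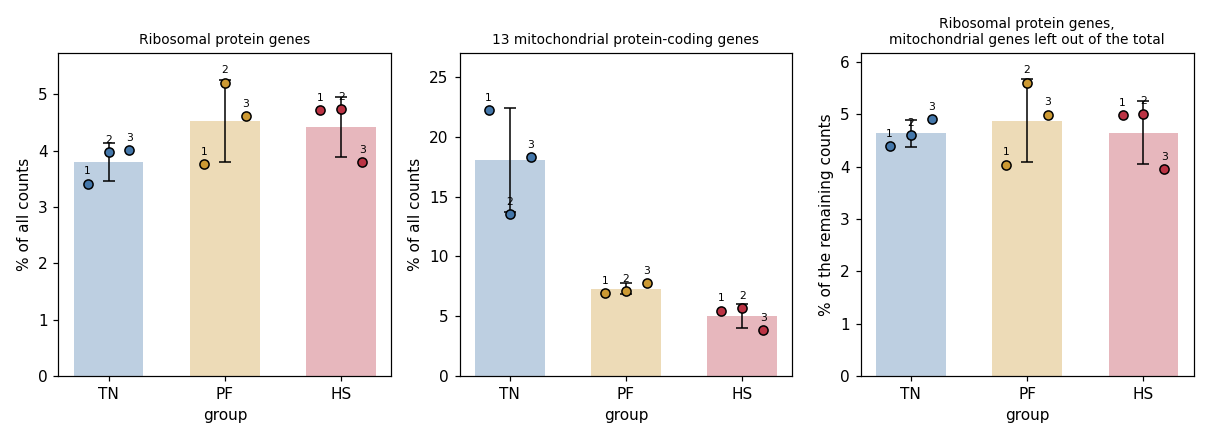
Percentage of counts from the 82 ribosomal protein genes (left, % of all counts), from the 13 mitochondrial protein-coding genes (middle, % of all counts), and on the ribosomal protein genes after the mitochondrial genes were left out of the total (right, %). Points are cows with the replicate number, bars group means and error bars SD (n = 3). The left panel has means of 3.80% (TN), 4.53% (PF) and 4.42% (HS). In the right panel TN (4.64%) and HS (4.65%) are level and PF is at 4.88%.

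The lower share in TN went with a larger mitochondrial share. Mitochondrial protein-coding genes held 13.6% to 22.2% of counts in TN, 6.90% to 7.79% in PF and 3.84% to 5.68% in HS. With these genes left out of the total, the ribosomal protein share was 4.39%, 4.60% and 4.92% in TN, 4.04% to 5.61% in PF, and 4.99%, 5.02% and 3.95% in HS. The HS mean minus the TN mean was 0.615 percentage points of all counts and 0.0179 percentage points of the counts that were not mitochondrial. On the second scale the TN cows lay inside the range of each of the other groups, and the PF mean was 4.88% against 4.64% in TN. Other scales kept the TN mean lowest. With the 10 most abundant genes left out of the total, the means were 4.74% (TN), 5.45% (PF) and 5.18% (HS). On TMM-normalized CPM they were 3.69%, 4.73% and 4.48%.

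Of the 82 members, 81 had enough counts to be tested in every comparison. The exception was RPL10L, a retrogene of RPL10 with its main known expression in testis, which had 0 counts in all 9 libraries. The floor set by a count of 0 was 0.111 to 0.202 CPM per library (3 counts).

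The 81 members moved together from cow to cow. TN replicate 1 had the lowest CPM of all 9 cows for 66 members, and 79 members were below their own 9-cow mean in it. The median deviation from that mean over all 81 members was -0.71 on the log2 scale. PF replicate 2 had the highest CPM for 49 members and HS replicate 2 for 21 members. Their median deviations over all 81 members were 0.41 and 0.28. TN replicates 2 and 3 were near the average, with medians of 0.00 and 0.05. The median over all genes stayed between -0.01 and 0.03 in every library. The place of a cow depended on the scale. The members' share in TN replicate 1 was 2.58% on the TMM scale and 3.42% of all counts, the lowest on both. With mitochondrial genes left out of the total it was 4.39%, above PF replicate 1 (4.04%) and HS replicate 3 (3.95%). HS replicate 1 had 4.72% of all counts but 3.93% on the TMM scale.

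**Figure D2:**
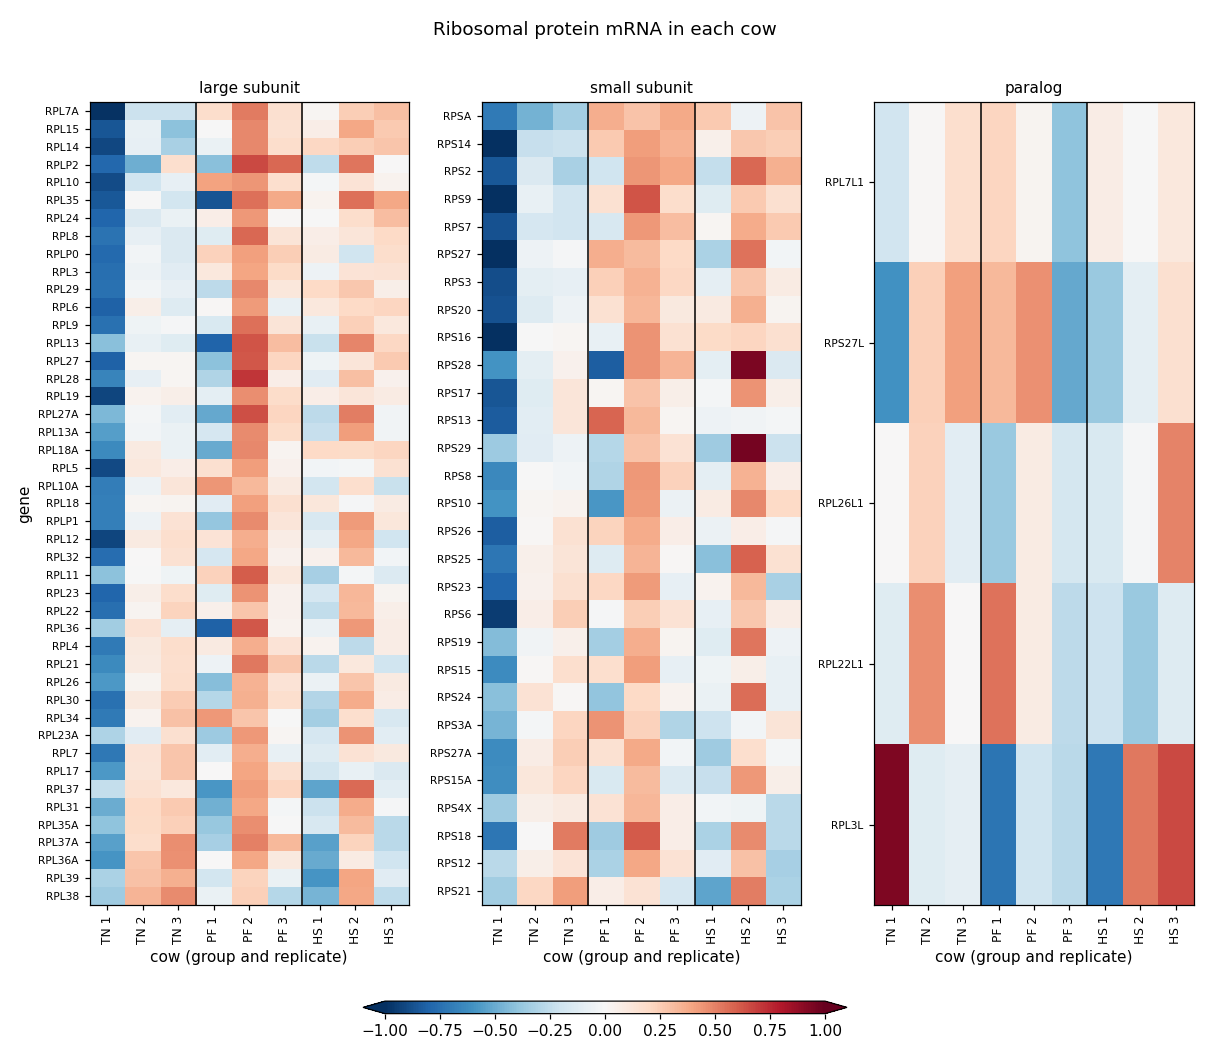
Each cell is the log2(CPM + 0.5) of 1 gene in 1 cow minus the mean of that gene over the 9 cows, for the large subunit genes, the small subunit genes and the 5 paralogs tested, leaving out 2 members not reported here; colors stop at -1 and 1. Within a panel, genes are ordered by the mean of HS and PF over the mean of TN, which is a description. TN 1 is blue and PF 2 red in nearly all subunit genes, and of the paralogs RPS27L has its lowest level in TN 1 and its highest in PF 2.

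The shared movement made up much of the spread. The SD of a member over the 9 cows had a median of 0.36 on the log2 scale, and of 0.20 after the median of the members in each cow was subtracted, with a smaller SD in 75 of 81 members. For all genes the median SD was 0.42. RPS6, the small subunit protein phosphorylated downstream of mTOR, was at 299.5, 608 and 686 CPM in TN, at 574, 688 and 639.9 CPM in PF and at 546, 699.7 and 610.2 CPM in HS. Only TN replicate 1 was set apart, and the other 8 cows overlapped.

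Of the 81 members, RPL3L, the paralog of RPL3 known from skeletal and cardiac muscle, varied most over the 9 cows (log2 SD 0.59), at 1.12 to 4.65 CPM and 19 to 104 counts per library. RPL7L1, a paralog of RPL7, varied least (log2 SD 0.19), at 72.5 to 111 CPM.

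Heat stress with its low intake was first set against thermoneutrality. No member was called in HS vs. TN by the edgeR quasi-likelihood test (FDR under 0.1 and a fold change over 1.5), where 0.0892% of the 14582 genes tested were called. The lowest FDR of a member was 0.530. No member had an unadjusted p under 0.05, in either direction, against 4.13% of all genes higher and 5.23% lower in HS. By direction alone, 64 of the 81 members had a log2 fold change above 0, against 49.3% of all genes. The median was 0.23 (all genes, -0.01), equal to a fold of 1.18, and the members ranged from -0.39 to 0.69.

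The size of this shift rested in part on TN replicate 1. Without this cow the median log2 fold change of the members was 0.08 and 47 of 81 members were above 0, against 51.2% of all genes. Without HS replicate 2 the median was 0.12. DESeq2 called 0 members, where it called 1.32% of all genes, and 9 members had an unadjusted p under 0.05, all of them higher in HS (all genes, 4.07% higher and 3.85% lower).

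**Figure D3:**
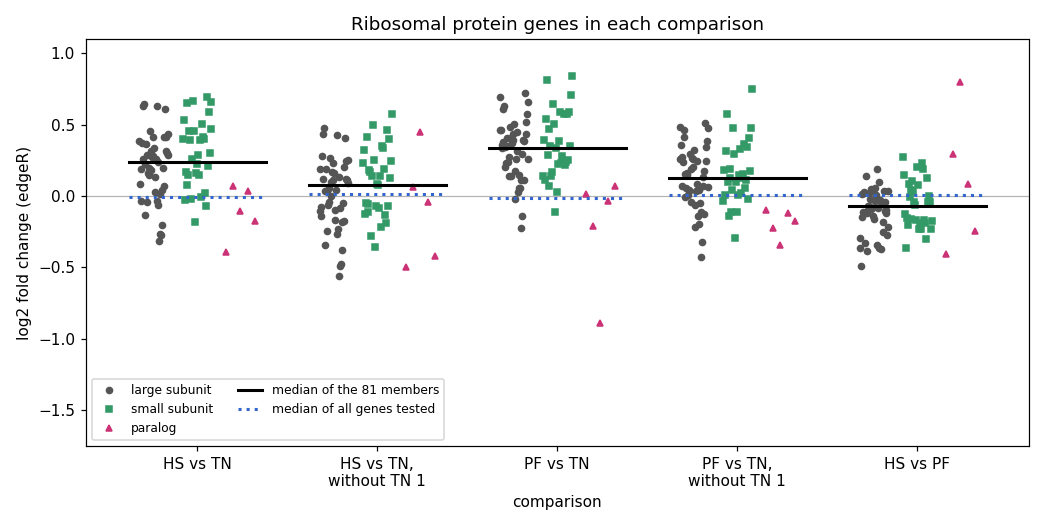
Log2 fold change (edgeR) of the 81 ribosomal protein genes in each comparison, by class, with the median of the members (black line) and of all genes tested (dotted line). The members' median is 0.23 in HS vs. TN and 0.34 in PF vs. TN, 0.08 and 0.12 when TN replicate 1 is left out, and -0.07 in HS vs. PF.

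The groups could also be compared cow by cow. Every HS cow was above every TN cow in CPM for 19 members, or 23.5% of those tested, against 8.37% of all genes, and below for 1 member (RPL22L1), against 7.7% of all genes. Without TN replicate 1 there were 19 higher (all genes, 11.6%) and 6 lower (all genes, 11.6%). With all cows included, the 19 higher members were 11 large and 8 small subunit genes.

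The members with the smallest p in HS vs. TN came from both subunits. RPL15, a large subunit protein, had 156, 269 and 212 CPM in TN, 282, 394 and 314 CPM in PF and 297, 369.7 and 339 CPM in HS. Every HS cow and every PF cow was above every TN cow. The log2 fold change in HS vs. TN was 0.65 (SE 0.31, edgeR FDR 0.530).

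RPL14, a large subunit protein, had 286, 509 and 430.3 CPM in TN, 514, 752 and 607 CPM in PF, and 621, 637 and 653 CPM in HS. The HS cows lay close together, at 621 to 653 CPM, and the TN cows all lay below them. The log2 fold change in HS vs. TN was 0.63 (SE 0.34, edgeR FDR 0.570).

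RPS7, a small subunit protein that also binds MDM2, had 327, 531 and 524 CPM in TN and 605, 772 and 716 CPM in HS, with a log2 fold change of 0.59 (SE 0.34, edgeR FDR 0.587). RPL35, which sits near the tunnel through which the new chain leaves the ribosome, had 243, 437 and 387 CPM in TN, 241, 643 and 571 CPM in PF and 449, 641 and 573 CPM in HS. Its log2 fold change in HS vs. TN was 0.63 (SE 0.35, edgeR FDR 0.575), and PF replicate 1 was as low as TN replicate 1. In each of these genes the TN cow with the lowest level was replicate 1. The log2 fold changes in HS vs. TN without this cow were 0.48 (RPL15), 0.44 (RPL14), 0.40 (RPS7) and 0.43 (RPL35).

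RPL22L1, the paralog of RPL22, was the member with the smallest p among those lower in HS. It had 17.3, 26.2 and 18.9 CPM in TN, 27.6, 19.9 and 15.6 CPM in PF, and 16.3, 14.4 and 17.2 CPM in HS. The HS cows lay just below the lowest TN cow, and the log2 fold change was -0.39 (SE 0.23, edgeR FDR 0.585), or -0.19 without TN replicate 2.

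Pair-feeding alone was then set against thermoneutrality. No member and no gene was called in PF vs. TN by edgeR (0% of the 14580 tested), and the lowest FDR of a member was 0.708. An unadjusted p under 0.05 was seen for 2 members, RPSA and RPS14, both higher in PF, against 2.99% of all genes, and for 0 members lower in PF, against 3.89%. Of the 81 members, 74 had a log2 fold change above 0, against 48.8% of all genes, with a median of 0.34 (all genes, -0.01) or a fold of 1.26. Every PF cow was above every TN cow for 15 members (all genes, 6.81%) and below for 1, RPL3L (all genes, 6.36%).

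Both outlying cows bore on these values. The median log2 fold change was 0.12 without TN replicate 1 and -0.03 without both TN replicate 1 and PF replicate 2. When libraries were scaled by their total alone, without TMM, the median of all genes shifted to -0.17 and that of the members to 0.23. Without PF replicate 1, every PF cow was above every TN cow for 37 members (all genes, 11.9%) and below for 1 (all genes, 11.1%).

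RPSA, the laminin receptor precursor and a protein of the small subunit, was the member with the smallest p in PF vs. TN and was second in HS vs. TN. It had 342, 400.4 and 441 CPM in TN, 716, 680.4 and 723 CPM in PF, and 668, 538 and 679 CPM in HS. Every PF and every HS cow was above every TN cow, and every HS cow was below every PF cow. The log2 fold change was 0.84 in PF vs. TN (SE 0.32, edgeR FDR 0.708) and 0.66 in HS vs. TN (SE 0.32, edgeR FDR 0.532).

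RPSA was the single member that DESeq2 called, and only in PF vs. TN. Its log2 fold change there was 0.85 with an FDR of 0.0995, while 0.449% of all genes were called, and 11 members had an unadjusted p under 0.05 by DESeq2, all of them higher in PF (all genes, 3.03% higher and 3.39% lower). The FDR of RPSA in PF vs. TN lay between 0.0995 and 1.00 over the 19 alternative settings. Without TN replicate 1 its log2 fold change was 0.75, and without both TN replicate 1 and PF replicate 2 it was 0.77. In a test of all 3 groups together, edgeR put 0 members past an FDR of 0.1 (0.0464% of all genes), while DESeq2 put 1 past it, again RPSA (FDR 0.0322, 1.39% of all genes). At the unadjusted threshold of 0.05 there was 1 member by edgeR (7.86% of all genes) and there were 10 by DESeq2 (7.46%). The reference annotation places an uncharacterized gene over part of RPSA, and RPSA has many processed copies in mammalian genomes, so its counts carry the uncertainty given at the end of this section.

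RPS14, a small subunit protein at the mRNA platform, had 285, 538 and 547 CPM in TN, 758, 848 and 806 CPM in PF and 657, 763 and 749.5 CPM in HS. Every PF and HS cow was above every TN cow. The log2 fold change was 0.81 in PF vs. TN (SE 0.36, edgeR FDR 0.708) and 0.65 in HS vs. TN (SE 0.36, edgeR FDR 0.577). Without TN replicate 1 these were 0.57 and 0.41.

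**Figure D4:**
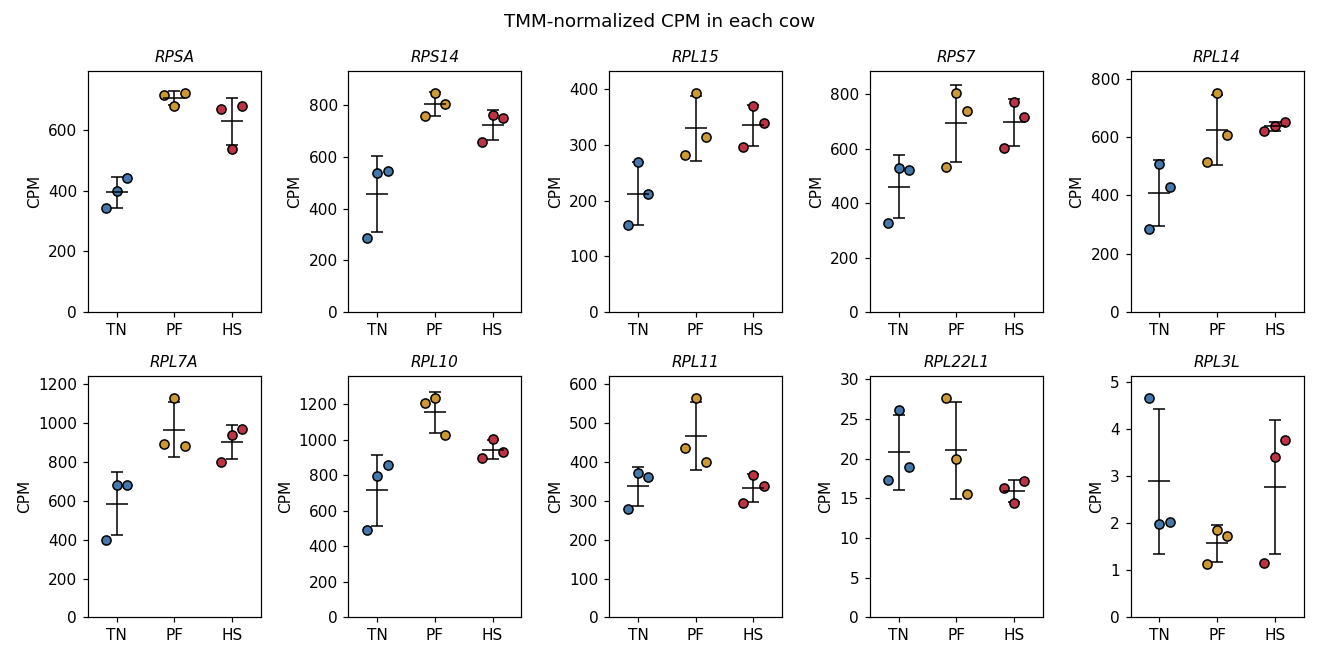
TMM-normalized CPM of 10 ribosomal protein genes named in the text in each cow (points, replicates 1 to 3 from left to right), with the group mean and SD (n = 3). RPSA, RPS14, RPL15, RPL14, RPL7A and RPL10 have every PF and HS cow above every TN cow, RPL11 has every PF cow above the other groups, and RPL22L1 has its 3 HS cows just below the lowest TN cow.

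Further members with a small p in PF vs. TN were also higher in PF. RPS9, a small subunit protein involved in decoding accuracy, had 97.9, 186 and 171 CPM in TN and 218, 303 and 221 CPM in PF (log2 fold change 0.70, SE 0.34, edgeR FDR 0.709). RPL7A, a large subunit protein whose introns hold small nucleolar RNAs in mammals, had 397, 682 and 680.0 CPM in TN and 891, 1130.5 and 881 CPM in PF (log2 fold change 0.72, SE 0.36, edgeR FDR 0.709). RPL10, which joins the large subunit late in its assembly, had 489, 793 and 859.7 CPM in TN and 1204, 1234 and 1023 CPM in PF (log2 fold change 0.69, SE 0.36, edgeR FDR 0.709). In all 3 genes every PF cow was above every TN cow. Their log2 fold changes without TN replicate 1 were 0.48 (RPS9), 0.51 (RPL7A) and 0.49 (RPL10).

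RPL15 and RPL14 were also among the 8 members with the smallest p in PF vs. TN. Their log2 fold changes were 0.63 (SE 0.33) and 0.61 (SE 0.35), each at an edgeR FDR of 0.709. They were 0.46 and 0.42 without TN replicate 1. RPS2, a small subunit protein at the mRNA entry, had 884, 1436 and 1267 CPM in TN, 1380.3, 2158 and 2072 CPM in PF and 1345, 2359.7 and 2025 CPM in HS. In PF and in HS, 1 cow lay within the TN range, and the log2 fold change in PF vs. TN was 0.64 (SE 0.37, edgeR FDR 0.709).

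Heat at a matched intake was compared in HS vs. PF. No member was called by edgeR (0.0276% of the 14510 genes tested) or by DESeq2 (0.596%), and the lowest edgeR FDR of a member was 0.983. An unadjusted p under 0.05 was seen by edgeR for 0 members (all genes, 3.07% higher and 2.25% lower in HS). Of the 81 members, 28 had a log2 fold change above 0 (all genes, 50.9%), and the median was -0.07 (all genes, 0.01). Without PF replicate 2 the median was 0.11 and 53 members were above 0, and without HS replicate 2 it was -0.19 with 10 above 0, so the direction turned with single cows. Every HS cow was below every PF cow for 8 members (all genes, 4.58%), and above for 0 members (all genes, 5.95%).

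RPL11, which with RPL5 and the 5S rRNA forms the particle that binds MDM2, led this comparison. It had 435, 564 and 399 CPM in PF, 295, 366 and 338 CPM in HS and 279.9, 371 and 360.2 CPM in TN. Every PF cow was above every cow of the other groups, while HS and TN overlapped. The log2 fold change in HS vs. PF was -0.49 (SE 0.27, edgeR FDR 0.983), or -0.32 without PF replicate 2, and RPL11 was the only member with an unadjusted p under 0.05 by DESeq2 (all genes, 2.67% higher and 1.97% lower in HS).

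RPL5, the partner of RPL11, had 736, 878 and 677 CPM in PF and 646, 648 and 729.7 CPM in HS, which overlapped. The other members among the 8 with the smallest p in HS vs. PF had log2 fold changes of -0.40 (RPL22L1), -0.36 (RPL36A and RPS13), -0.37 (RPL10A), -0.38 (RPL21), -0.33 (RPL17) and 0.80 (RPL3L), each at an edgeR FDR of 1.00. RPS13, a small subunit protein, had 375, 314 and 254 CPM in PF and 242, 244 and 248 CPM in HS, and the groups did not overlap. RPL17, a large subunit protein near the exit tunnel, had 547, 719 and 609 CPM in PF and 481, 519 and 493 CPM in HS, which also did not overlap.

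The stalk of the large subunit, which recruits the translation factors, is built from RPLP0, RPLP1 and RPLP2. RPLP0, its base, had 340.5, 574 and 527 CPM in TN, 687, 776 and 691 CPM in PF and 619, 508 and 660.1 CPM in HS. Every PF cow was above every cow of the other groups. RPLP1 had 1272 to 2258 CPM in TN, 1562 to 2825 CPM in PF and 1822 to 2746 CPM in HS, and RPLP2 had 158 to 306, 204 to 429.5 and 228 to 395 CPM. Both overlapped among all groups, with their highest level in PF replicate 2.

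RPS3, a small subunit protein with a role in DNA repair, had 353, 608 and 616 CPM in TN, 771, 828 and 753 CPM in PF and 612, 791 and 692 CPM in HS, so that every PF cow was above every TN cow. RPL13A, known as a subunit of a complex that silences inflammatory mRNAs, had 593 to 857 CPM in TN, 776 to 1209 CPM in PF and 744 to 1164 CPM in HS. RPL23, which can bind MDM2, had 456 to 894, 728 to 1080.2 and 704 to 997 CPM, RPS19, mutated in Diamond-Blackfan anemia, had 400.2 to 559.9, 427 to 696 and 496 to 784 CPM, and RPS27A, made as a fusion with ubiquitin, had 359.8 to 660.4, 545 to 725 and 435 to 625 CPM in TN, PF and HS. These 4 genes overlapped among the groups.

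The balance of the subunits was described without a test. The ratio of large to small subunit counts was 1.43, 1.45 and 1.44 in TN, 1.30, 1.48 and 1.40 in PF, and 1.35, 1.27 and 1.37 in HS. The 3 HS cows all had a smaller ratio than the 3 TN cows, while the PF cows spanned both groups.

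The make-up of the ribosomal protein pool was described by the share of each member in the summed counts of all members, a scale on which the common movement of a cow drops out. In HS vs. TN, 12 members had a higher share in every HS cow (all genes divided by the same sum, 2.62%) and 16 a lower share (all genes, 12.1%). In PF vs. TN, 12 members had a higher share in every PF cow (all genes, 1.56%) and 16 a lower share (all genes, 13.8%). In HS vs. PF it was 4 higher (all genes, 6.4%) and 4 lower (all genes, 1.94%). On this scale a gene outside the members falls when the members' sum is high, which lowers the background of higher genes. Because the shares of the members add up to a fixed sum, a higher share of some goes with a lower share of others. With library size set to the members' sum, no member had an unadjusted p under 0.05 by edgeR in any comparison. The median log2 fold change of all genes in that fit was -0.32 in HS vs. TN, 0.08 in HS vs. PF and -0.42 in PF vs. TN. The share of all genes under this threshold is not given for that fit, so the count was not taken as a result about the members.

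The higher and lower shares in HS vs. TN drew on both subunits. Of the 12 higher, 8 were small subunit genes (RPS3, RPS7, RPS9, RPS10, RPS14 and RPS20 among them) and 4 were large subunit genes (RPL7A, RPL14, RPL15 and RPL35), while 12 of the 16 lower ones were large subunit genes. RPS14 held 1.11%, 1.29% and 1.26% of the members' counts in TN, 1.90%, 1.51% and 1.76% in PF and 1.67%, 1.48% and 1.71% in HS. RPSA was not among them: HS replicate 2, at 1.04%, lay within the TN range of 0.964% to 1.32%.

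**Figure D5:**
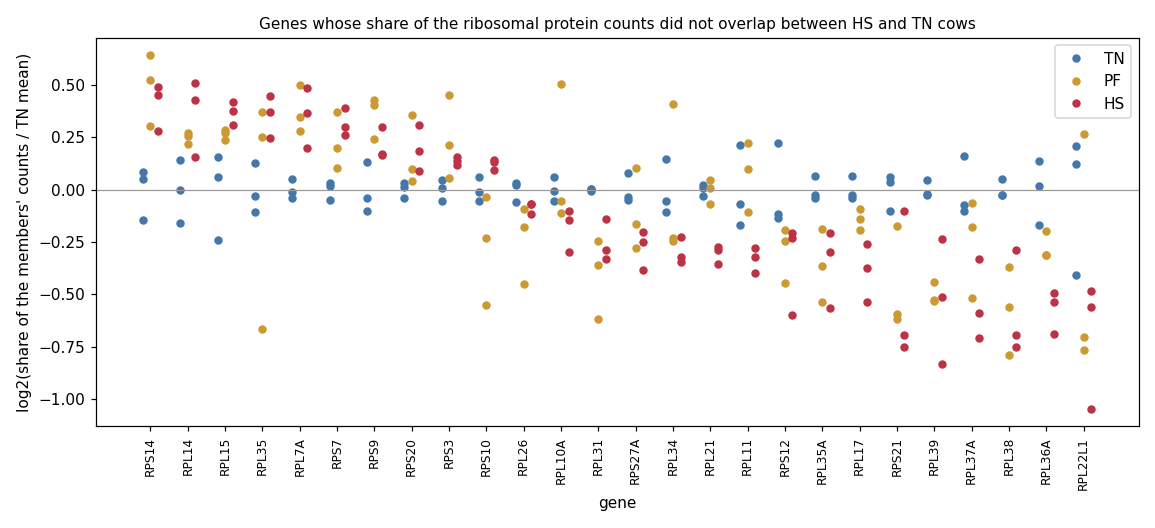
Share of each gene in the summed counts of the ribosomal protein genes, as log2 of the ratio to the TN mean, in each cow (points: TN blue, PF yellow, HS red), for genes whose share did not overlap between HS and TN cows, leaving out 2 members not reported here. Genes were chosen by this separation, so the separation itself is a description. The genes on the left are higher and the 16 on the right lower in every HS cow.

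Among the lower shares, RPL36A held 0.324%, 0.369% and 0.401% of the members' counts in TN, 0.318%, 0.294% and 0.294% in PF and 0.226%, 0.259% and 0.252% in HS. RPL39, a very small protein at the exit tunnel, held 0.922%, 0.878% and 0.879% in TN, 0.658%, 0.618% and 0.620% in PF and 0.501%, 0.759% and 0.627% in HS. In both genes every PF and HS cow was below every TN cow. RPL38, RPL37A and RPS21 were picked after their values were seen. RPL38 held 0.477% to 0.503% in TN, 0.281% to 0.376% in PF and 0.289% to 0.398% in HS, RPL37A held 1.54% to 1.85%, 1.16% to 1.58% and 1.01% to 1.31%, and RPS21 held 0.518% to 0.578%, 0.362% to 0.492% and 0.330% to 0.517%.

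A few ribosomal proteins have a second gene, and the ratio within a pair is free of the scaling between libraries. There were 7 such pairs with counts, and 21 ratios were compared by a two-sided exact permutation test, which cannot go below p = 0.1 with 3 cows against 3. RPS27L, a p53 target related to RPS27, had a log2 ratio to RPS27 of -2.14, -2.27 and -2.14 in TN, -2.59, -2.41 and -3.27 in PF and -2.62, -3.20 and -2.37 in HS. The ratio was lower in every PF and every HS cow than in every TN cow, by 0.58 and 0.55 on the log2 scale (exact permutation p = 0.1 each, adjusted 0.3 over the 21).

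RPS4Y1, named as a Y-linked second gene for the RPS4 protein, is not a member by its symbol. It had 373 to 918 counts per library, although all animals were cows. The origin of these reads was not tested, and reads may be divided between RPS4Y1 and RPS4X, so the ratio is uncertain to that extent. The log2 ratio of RPS4Y1 to RPS4X was -3.68, -3.68 and -3.88 in TN, -3.52, -3.23 and -3.59 in PF and -3.16, -3.09 and -2.90 in HS. The groups did not overlap in any comparison, with mean differences of 0.70 in HS vs. TN, 0.40 in HS vs. PF and 0.30 in PF vs. TN (exact permutation p = 0.1 each, adjusted 0.3). RPS4Y1 itself was at 22.0 ± 3.09 CPM in TN, 32.5 ± 7.66 CPM in PF and 34.4 ± 0.540 CPM in HS (SD, n = 3), and its log2 fold change in HS vs. TN was 0.63 (SE 0.20, edgeR FDR 0.417).

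Among the remaining pairs, RPL36AL to RPL36A was higher in every HS than in every TN cow (difference 0.25), and RPL3L to RPL3 was lower in every PF than in every TN cow (difference -1.32, on 19 to 104 counts of RPL3L), both at an exact permutation p of 0.1 (adjusted 0.3). The log2 ratio of RPL3L to RPL3 was -5.99, -7.92 and -7.82 in TN and -8.87, -8.46 and -8.35 in PF. TN replicate 1, with the 104 counts, was set apart from the other TN cows. The log2 fold change of RPL3L in PF vs. TN was -0.89, or -0.34 without TN replicate 1. RPL7L1 to RPL7, RPL22L1 to RPL22 and RPL26L1 to RPL26 overlapped between the groups in all comparisons. Their largest difference was -0.58, for RPL22L1 to RPL22 in HS vs. TN (exact permutation p = 0.3, adjusted 0.573).

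Other parts of the translation machinery were taken from lists and are given beside the members. Elongation factors and other mRNAs with a TOP motif had a median log2 fold change of 0.38 in PF vs. TN, with 19 of 19 genes above 0, and of 0.23 in HS vs. TN, with 14 of 19 above 0. Initiation and termination factors had 26 of 29 genes above 0 in PF vs. TN (median 0.31) and 25 of 29 in HS vs. TN (median 0.17). In HS vs. PF the medians were -0.22 and -0.04. No gene of these lists was called by edgeR in any comparison. Of all genes, 49.3% were above 0 in HS vs. TN, 50.9% in HS vs. PF and 48.8% in PF vs. TN. The counts and medians of these and the following lists are given only with TN replicate 1 included. The elongation and TOP list had its lowest share of all counts in that cow (0.840%). Without it the members' median fell to 0.12 in PF vs. TN and 0.08 in HS vs. TN. How far the list values rested on that cow was not tested.

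In the elongation list, EEF1D, a subunit of the factor that recharges EEF1A, was at 254 ± 41.4 CPM in TN, 417 ± 87.7 CPM in PF and 430.3 ± 59.7 CPM in HS (SD, n = 3). EIF2S3, the gamma subunit of the initiation factor that brings the first tRNA, was at 61.8 ± 22.2 CPM in TN, 99.7 ± 9.92 CPM in PF and 103 ± 8.35 CPM in HS. In both genes every PF and HS cow was above every TN cow. Their log2 fold changes in HS vs. TN were 0.74 and 0.72 (SE 0.30 and 0.29, edgeR FDR 0.501 and 0.503). They were 0.63 and 0.48 without TN replicate 1.

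In the initiation list, EIF4H, a cofactor of the helicase EIF4A, and EIF3J, a loosely bound subunit of EIF3, led both comparisons with TN. Their log2 fold changes were 0.67 and 0.63 in HS vs. TN (edgeR FDR 0.522 each) and 0.80 and 0.75 in PF vs. TN (edgeR FDR 0.697 and 0.708). In HS vs. PF, EIF1AX, a scanning factor, and EIF3I had log2 fold changes of -0.72 and -0.52 (edgeR FDR 0.642 and 0.941). EIF2A and EIF3E, of the elongation and TOP list, had -0.44 and -0.37 in HS vs. PF (edgeR FDR 0.960 and 1.00).

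Ribosome components outside the symbol rule had 5 genes tested, of which 4 were above 0 in HS vs. TN, 2 in HS vs. PF and 5 in PF vs. TN. FAU, which encodes a small subunit protein fused to a ubiquitin-like protein, was at 292 ± 71.9 CPM in TN, 467 ± 28.2 CPM in PF and 361 ± 85.7 CPM in HS (SD, n = 3), with a log2 fold change of 0.68 in PF vs. TN (edgeR FDR 0.709).

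Factors that build ribosomes, most of them nucleolar, were counted next. Of 37 biogenesis factors, 24 were above 0 in HS vs. TN (median 0.16), 23 in HS vs. PF (median 0.07) and 23 in PF vs. TN (median 0.11). PNO1, an assembly factor of the small subunit, and NOLC1, a nucleolar phosphoprotein, had log2 fold changes of 0.88 and 0.65 in HS vs. TN (edgeR FDR 0.456 and 0.462). SBDS, which helps release a maturation block from the large subunit, and LTV1, a small subunit assembly factor, had 0.81 and -0.81 in PF vs. TN (edgeR FDR 0.708 each). Without TN replicate 1 the value of SBDS was 0.53, and those of PNO1 and NOLC1 in HS vs. TN were 0.65 and 0.52. GNL3 (nucleostemin) and RIOK2, a kinase of small subunit maturation, led HS vs. PF, at 0.48 and 0.34 (edgeR FDR 0.977 and 1.00).

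Genes for RNA polymerase I and for 5S rRNA transcription had 10, 9 and 9 of 18 above 0 in HS vs. TN, HS vs. PF and PF vs. TN. POLR3A, the largest subunit of RNA polymerase III, had a log2 fold change of -1.12 in HS vs. TN and -0.87 in HS vs. PF (edgeR FDR 0.462 and 0.767). Without TN replicate 1 the former was -0.54. TAF1D and TAF1C belong to the selectivity factor of RNA polymerase I, and GTF3C1 to the factor TFIIIC. TAF1D had -0.59 in HS vs. TN, TAF1C had -0.92 and GTF3C1 had -0.44 in PF vs. TN, and GTF3C1 had 0.44 in HS vs. PF (edgeR FDR 0.512, 0.705, 0.709 and 0.960). Without TN replicate 1 the values of TAF1D and TAF1C were -0.40 and -0.50. GTF3C1 in PF vs. TN ranged from -0.55 to -0.32 when single libraries were left out.

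The list of mTOR and TOP mRNA control had 24 genes, of which 11, 15 and 9 were above 0 in HS vs. TN, HS vs. PF and PF vs. TN. LARP1, which binds the TOP motif, was at 31.1 CPM in TN and 14.7 CPM in HS, with a log2 fold change of -1.11 (SE 0.35, edgeR FDR 0.426), or -0.61 without TN replicate 1. EIF4EBP1, a repressor of EIF4E that mTOR inactivates, was at 28.8 CPM in TN and 56.9 CPM in HS, with a log2 fold change of 0.97 (SE 0.32, edgeR FDR 0.456). For both genes there was no overlap between the HS and the TN cows. In this list 2 genes were higher and 5 lower in every HS than in every TN cow (all genes, 8.37% and 7.7%). The log2 fold change of EIF4EBP1 without TN replicate 1 was 0.69.

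DDIT4, an inhibitor of mTORC1, had a log2 fold change of -1.54 in PF vs. TN (edgeR FDR 0.615), and it was the gene of this list that DESeq2 called (FDR 0.0397). Over the alternative settings its FDR lay between 0.0106 and 1.00, and its log2 fold change between -2.12 and -0.75, with -0.83 when TN replicate 1 was left out. SESN2, which senses leucine, had -0.80 in PF vs. TN and 0.78 in HS vs. PF (edgeR FDR 0.705 and 0.755), and CASTOR1, which senses arginine, had 0.72 in HS vs. PF (edgeR FDR 0.784).

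The genes themselves share features that the symbol rule did not use. In the RefSeq annotation of a later build (ARS-UCD2.0), which listed all 82 members, 27 members (32.9%) had at least 1 small nucleolar RNA gene within their span, 57 in all, against 277 of 21666 protein-coding genes (1.28%). The span of 8 members overlapped another protein-coding gene: RPL35 with WDR38, RPL35A with IQCG, RPL36 with LONP1, RPS6 with DENND4C, RPS9 with LOC107131323, RPS23 with ATG10, RPS25 with CENATAC and RPS27 with NUP210L. Because the counts' use of strand and of reads that match several places was not given in the sources used here, reads of such pairs and of the many near-identical processed copies of ribosomal protein genes may be divided among loci, and the level of any single member is uncertain to that extent.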

How the data were processed

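Poly(A) RNA of 9 liver biopsies (3 TN, 3 PF, 3 HS cows) was sequenced in pairs. The authors trimmed reads with fastp 0.23.2, aligned them to ARS-UCD1.2 with STAR 2.7.9a and made the deposited table of raw counts per gene with featureCounts 2.0.3. The annotation release, the strand setting and the treatment of reads with several matches were not given in the sources used here.

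Groups and replicate numbers came from the sample titles. Counts were fitted over the whole table with edgeR 4.0.16 (R 4.3.3, filterByExpr, TMM, quasi-likelihood F test) for each pair of groups, and p-values were adjusted by Benjamini-Hochberg across every gene in the fit. Called means an FDR under 0.1 with a fold change beyond 1.5. DESeq2 1.42.0, the study's tool, was an alternative. Level means CPM with TMM factors from the 9 libraries, with 0.5 added before log2. The code was tested on simulated data.

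The members and the gene lists were chosen with earlier results of these data known. Named members were the 8 with the smallest p in each comparison, the most and the least variable, a set with known roles and both genes of each paralog pair, of which some are not reported here; genes of other lists were the 2 with the smallest p, except the mitochondrial list, given by its share. A part of the rule on levels per coding length was not applied, since transcript lengths were not used here, so levels are not compared between genes. No sequences are given, since none were in the reference used here. The edgeR and DESeq2 p-values set a group difference against the spread between these cows.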

Additional observations from a re-analysis of the deposited data

How the results depend on the processing

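No member was called in any comparison by edgeR under any other normalization, filter, threshold, sample set or left-out library, with DESeq2 as the exception: it called 1 member in PF vs. TN and put 1 past the FDR in the 3-group test. The median log2 fold change in PF vs. TN was -0.034 with library size set to the members' sum and -0.027 without both TN replicate 1 and PF replicate 2, both chosen after seeing the data. On leaving out a single library it was 0.08 to 0.37 in HS vs. TN, -0.19 to 0.11 in HS vs. PF and 0.12 to 0.46 in PF vs. TN. The HS minus TN difference in share was 0.0179 percentage points with mitochondrial genes left out of the total. On TMM-normalized CPM the means stayed apart, at 4.48% in HS and 3.69% in TN. Members not overlapping in CPM numbered 8 in HS vs. PF and 9 to 19 when a library was left out; in PF vs. TN they numbered 16, 28 relative to the members' sum, and 17 to 38 when a library was left out. Leaving out a library also raised the share of all genes that did not overlap. In PF vs. TN without PF replicate 1, all genes went from 6.81% higher and 6.36% lower to 11.9% and 11.1%. The members went from 18.5% and 1.23% to 45.7% and 1.23%. In HS vs. PF without HS replicate 2, all genes went from 5.95% and 4.58% to 10.1% and 8.03%. The members went from 0% and 9.88% to 0% and 23.5%. Because fewer cows raised these shares in all genes, the ranges alone were not taken as a result about the members. The fit with the replicate number as a block called 0 members in each comparison (medians 0.25, -0.07 and 0.34 in HS vs. TN, HS vs. PF and PF vs. TN); the deviations of same-numbered cows correlated between -0.22 and 0.25, so the numbers were not taken as pairs. With 3 cows a group and a median SE of 0.35 on the log2 scale in HS vs. TN, differences of the size seen in most members were not detectable.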
